A study of Mus musculus
Mus spretus with 18 samples.

Results

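Splicing and expression of both parental alleles were compared in the spleen of F1 hybrid mice. The hybrids were females of 8 weeks with a C57BL/6J mother, the most used laboratory mouse strain, and a SPRET/EiJ father, an inbred strain of Mus spretus. Spleen was 1 of 7 tissues or cell types of such hybrids with 2 biological replicates each, and fibroblasts that the series also holds were not used here. Spleen, lung, kidney, heart and cortex were taken from 2 animals, and the embryonic stem cells were independent clones. The liver data came from earlier work, which the paper describes as done on the same animals. They carry other C57BL strain names in the labels, C57BL/7J and C57BL/8J, read here as the same cross. By the labels and methods these samples had no treatment and no engineered allele, so the only contrast within a spleen library was between reads assigned to the C57BL/6J allele and reads assigned to the SPRET/EiJ allele. The unit was a skipped exon event, an exon with its upstream and downstream neighbours for which reads across the inclusion junctions and the skipping junction were counted. Of 27890 events in the spleen table, 27170 lay on autosomes, and 21726 of these, in 7453 genes, had 20 or more junction reads on each allele in each replicate. These 21726 events are described here.

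In a cassette exon, the splicing machinery either joins the exon to both neighbours or leaves it out, and the share of transcripts that keep it is called the percent spliced in, or PSI, given here from 0 to 1. An F1 hybrid holds both alleles in the same nuclei, so within a cell both are exposed to the same splicing factors. Whether both alleles of a gene were expressed in the same cell types of the spleen was not measured. The spleen filters blood, removes old red cells in the red pulp and holds B and T lymphocytes in the white pulp, and many of its immune genes belong to families that differ between mouse strains.

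The 8 B cell markers summed to 6217 TPM, a level scaled to transcript length and library size, in replicate 1 and to 4041 TPM in replicate 2, the 8 T cell markers to 940 and 686, and 7 markers of red pulp macrophages and monocytes to 1605 and 1863. Markers of erythroid cells summed to 3382 TPM in replicate 1 and 7604 TPM in replicate 2, the only one of these 4 lists whose replicates differed by more than 2-fold, and all 8 markers of exocrine pancreas, the neighbouring organ, were below 1 TPM in both. In such bulk samples fewer cells of a type and less RNA per cell cannot be told apart. The C57BL/6J allele had 15833516 and 15249343 junction reads and the SPRET/EiJ allele 15988054 and 15353087, and 53.9% of the junction reads of each library could be given to an allele. These sums, and those per gene below, add the counts of events, so a read of a junction shared by several events counts in each. Over autosomal genes, 49.9% of the allelic reads in replicate 1 and 50.04% in replicate 2 were from C57BL/6J.

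A block of chromosome 4 stood apart in replicate 2. Necap2, a coat protein adaptor gene of clathrin vesicles, had 6477 C57BL/6J and 5035 SPRET/EiJ reads in replicate 1, and 12972 C57BL/6J and 20 SPRET/EiJ reads in replicate 2. Fbxo42, the next gene with enough reads, had 305 and 266 reads in replicate 1, and 666 and 3 reads in replicate 2. In these genes the SPRET/EiJ reads of replicate 2 were nearly all missing and the C57BL/6J reads were about as many as those of both alleles in replicate 1. The same pattern was present in replicate 2 of other organs: in lung Necap2 had 7880 C57BL/6J and 3 SPRET/EiJ reads, in kidney 3236 and 11, in cortex 1808 and 2, and in heart 642 and 3. Epha2, an ephrin receptor gene 235 kb further along, had 255 C57BL/6J and 0 SPRET/EiJ reads in replicate 2 of lung, against 185 and 190 reads in replicate 1. In liver Necap2 had too few reads, and Arhgef19, which lies between Fbxo42 and Epha2, had 568 C57BL/6J reads against 2 in replicate 1 and 500 against 0 in replicate 2. Replicate 1 of liver thus differed from replicate 1 of lung, kidney, cortex and heart, where Arhgef19 had 88, 176, 169 and 1161 SPRET/EiJ reads. Both replicates of embryonic stem cells had reads of both alleles of Necap2, with SPRET/EiJ shares of 45.2% and 44.3%. In spleen the other 29 genes within 3 Mb with enough reads had SPRET/EiJ shares between 14.0% and 67.8% in replicate 2. No event of Necap2 or Fbxo42 entered the test of exons below, and the cause was not tested.

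**Figure D1:**
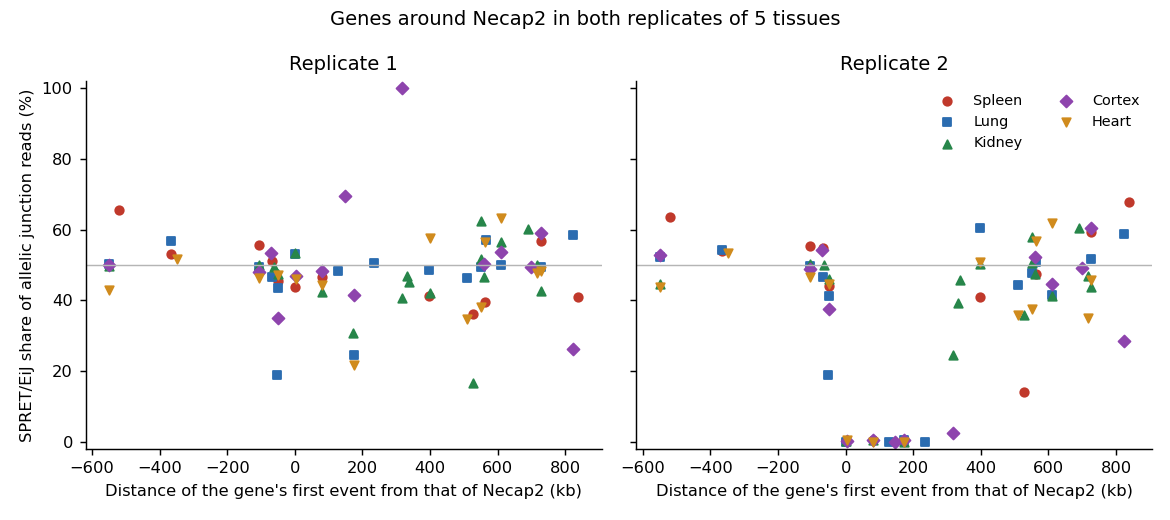
SPRET/EiJ share of allelic junction reads in percent, by distance of each gene from Necap2 in kb, in replicate 1 and replicate 2 of spleen, lung, kidney, cortex and heart, for genes with 40 or more allelic reads in each replicate. From Necap2 at 0 kb to Epha2 at 235 kb every share in replicate 2 is at most 0.607%, while the same genes in replicate 1 lie between 21.7% and 69.5%.

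Allelic differences in inclusion were small in most exons. Of the 21726 events, 9421 had fewer than 5 reads of the rarer form in all 4 counts together and were not tested, and 8805 of those had a PSI above 0.9 on both alleles in both replicates. The remaining 12305 events in 5706 genes had a median absolute difference in PSI of 0.0219 between the alleles, and a median of 260 reads per allele and replicate. A quasi-binomial model with moderated dispersion called 625 events in 510 genes at a Benjamini-Hochberg adjusted p under 0.05 and an absolute difference of at least 0.1, which is 5.08% of the events tested. Inclusion was higher on C57BL/6J in 356 of them, 2.89% of the events tested, and higher on SPRET/EiJ in 269, 2.19% of the events tested. In 621 of the 625 the replicates had the same direction and the values of both alleles did not overlap, against 45.8% of all tested events. The median absolute difference of the called events was 0.244, and the median standard deviation (SD) of that difference over both replicates was 0.0424. The dispersion of each event was replaced by the value expected at its depth, so an adjusted p rests on the spread of events of that depth and not on the event's own 2 replicates. In 90.1% of the called and 96.0% of the tested events the PSI from the reads of both alleles lay within 0.1 of the PSI from all reads. The authors left events beyond that limit out of their allelic analyses, because allelic values might be inaccurate where variants are few. Such events were kept here, and those among the named exons are marked as uncertain.

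**Figure D2:**
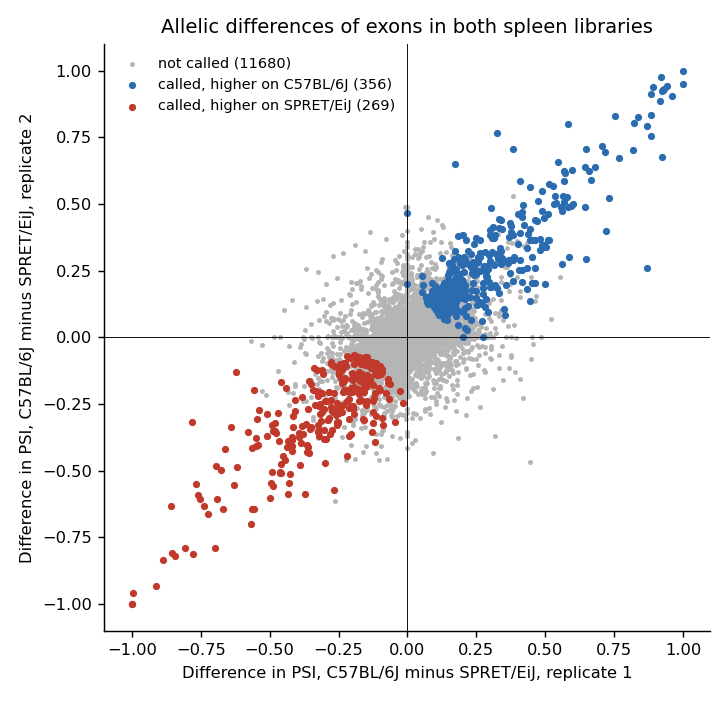
Allelic difference in PSI (C57BL/6J minus SPRET/EiJ) of 12305 tested exon events in replicate 1 (horizontal) and replicate 2 (vertical), each point 1 event. The 356 events called higher on C57BL/6J lie to the upper right and the 269 called higher on SPRET/EiJ to the lower left, with the other events in grey around 0.

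Large differences were few. An absolute difference of at least 0.3 was measured in 275 events, of which 237 were called, and a difference of at least 0.5 in 86 events, all called. In 14 events the alleles stood at opposite ends in both replicates, with a PSI of at least 0.9 on one and at most 0.1 on the other: 10 were included on C57BL/6J, 5 of them in Mrps17, and 4 on SPRET/EiJ. Just inside the read minimum, 693 events whose lowest count was 20 to 24 reads had a median absolute difference of 0.0521, and just outside it, 750 events with a lowest count of 15 to 19 had a median of 0.0672.

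Several of the 24 exons with the largest differences lay in genes of the immune system. Havcr1, also called Tim-1, is a phosphatidylserine receptor of lymphocytes and other cells. Its 69-base exon at chr11:46766641-46766709 (mm10 throughout) was read only as skipped from C57BL/6J, in 48 and 86 reads, and only as included from SPRET/EiJ, in 184 and 246 reads. The 0 inclusion reads among 134 on C57BL/6J allow a share of up to 2.24% of reads, and the 0 skipping reads among 430 on SPRET/EiJ a share of up to 0.698%. The 45-base exon of Tcrg-C4, a constant region gene of the T cell receptor gamma chain, at chr13:19347571-19347615, was split in the same way, with a PSI of 0 on C57BL/6J in 66 and 64 reads and of 1 on SPRET/EiJ in 127 and 85 reads. The exons of these genes thus changed from no inclusion read to no skipping read between the alleles. Serpina3f, a serine protease inhibitor gene with 13 neighbours of the same name stem within 500 kb, was split in the opposite direction: its 212-base exon at chr12:104215135-104215346 had a PSI of 1 on C57BL/6J in 76 and 136 reads and of 0 on SPRET/EiJ in 27 and 71 reads. Reads of near-identical family members may be assigned to the wrong gene, so the Serpina3f value is uncertain, and the same holds for Tcrg-C4, whose locus holds similar constant region genes.

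Apobec3 encodes a cytidine deaminase that restricts retroviruses, and its transcripts are known to differ between mouse strains in whether they keep the fifth exon. The 99-base exon at chr15:79899020-79899118 had PSI values of 0.00369 and 0.0105 on C57BL/6J, from 2717 and 2696 reads, and of 0.848 and 0.83 on SPRET/EiJ, from 683 and 838 reads. The difference of -0.832 ± 0.0181 (SD, n = 2) had the smallest adjusted p among the named exons, 3.55e-231 in the quasi-binomial test. The same gene had 2.74 and 2.38 as its log2 ratio of C57BL/6J to SPRET/EiJ junction reads in both replicates. Its exon differed in the same direction in each other tissue with 20 reads on each allele and replicate, by -0.786 in lung, -0.787 in kidney, -0.852 in heart and -0.857 in embryonic stem cells.

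Exons of Zbp1, Sp140, Aim2 and Ifi27, genes of nucleic acid sensing or induced by interferon, were included more on C57BL/6J, and Aim2 is named through its gene list and is not one of the 24. Zbp1, a sensor of left-handed nucleic acids that can start cell death, had PSI values of 0.956 and 0.929 on C57BL/6J and 0.0711 and 0.175 on SPRET/EiJ for its 178-base exon at chr2:173207742-173207919. Sp140, a nuclear body protein of leukocytes, had 0.942 and 0.975 on C57BL/6J and 0.0189 and 0.297 on SPRET/EiJ for a 144-base exon at chr1:85643203-85643346. The SPRET/EiJ values of Sp140 rest on 27 and 24 reads, against 1102 and 1039 on C57BL/6J, and the Sp100 family to which it belongs is known for repeated copies, so this value is uncertain. A 90-base exon of Aim2, a cytosolic DNA sensor of the inflammasome, at chr1:173454224-173454313, had 0.752 and 0.824 on C57BL/6J and 0.106 and 0.116 on SPRET/EiJ. Ifi27, an interferon-induced gene, had 0.726 and 0.731 on C57BL/6J and 0.0197 and 0.0138 on SPRET/EiJ for a 135-base exon at chr12:103437390-103437524. No overlap between alleles and 1 direction in both replicates were conditions for the 24, so they are no added support. In the whole list of interferon and nucleic acid sensing genes, 11 called events were higher on C57BL/6J and 8 higher on SPRET/EiJ.

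Receptors of lymphocytes and phagocytes followed. Klrc2, an activating receptor gene of natural killer cells, had PSI values of 0.193 and 0.209 on C57BL/6J and of 1 in both SPRET/EiJ values for a 143-base exon at chr6:129656346-129656488. Clec7a encodes dectin-1, a receptor for fungal beta-glucan, and its 135-base exon at chr6:129468869-129469003 had 0.175 in both C57BL/6J values and 0.874 and 0.964 on SPRET/EiJ. In both receptor genes the exon was included more on SPRET/EiJ. Klrc2 has close relatives in the same gene cluster and its reads are uncertain. Ccr6, a chemokine receptor gene of B cells and some T cells, had the opposite direction, with 0.967 and 0.919 on C57BL/6J and 0.147 and 0.215 on SPRET/EiJ for the 115-base exon at chr17:8255752-8255866. Its PSI from both alleles together was 0.72 and that from all reads 0.551, a gap of more than 0.1, so the allelic values of Ccr6 are uncertain. Ccr6 also had a log2 ratio of 1.85 and 2.25.

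Syncrip and Hnrnpc, genes of RNA-binding proteins that act in the processing of transcripts, were also among the 24. The 160-base exon of Syncrip at chr9:88480606-88480765 had PSI values of 0 and 0.0185 on C57BL/6J and of 0.886 and 0.853 on SPRET/EiJ. The 26-base exon of Hnrnpc at chr14:52098015-52098040 had 0.0924 and 0.178 on C57BL/6J and 0.951 and 0.811 on SPRET/EiJ. The Hnrnpc values on SPRET/EiJ rest on 27 and 47 reads. In both genes the PSI from all reads was higher than that from both alleles together, 0.906 against 0.733 in Syncrip and 0.82 against 0.238 in Hnrnpc. These gaps are above 0.1, so the allelic values of both exons are uncertain. For the Hnrnpc exon 355 C57BL/6J and 74 SPRET/EiJ reads stood beside 9020 junction reads in all.

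The other named exons lay in genes of general cell functions. In mitochondria, Mrps17, a ribosomal protein gene, had PSI values of 0.952 and 0.961 on C57BL/6J and 0.0105 and 0.0171 on SPRET/EiJ for the 80-base exon at chr5:129715684-129715763, and Mtif2, a translation initiation factor gene, and Sfxn4, a sideroflexin gene, also had higher inclusion on C57BL/6J, by 0.83 and 0.72. Cdc26, a subunit of the anaphase-promoting complex, had 0.956 and 0.942 on C57BL/6J and 0.0714 and 0.107 on SPRET/EiJ for the 97-base exon at chr4:62404456-62404552. The 93-base exon of Fut8, which adds core fucose to glycoproteins, had 0.924 and 0.908 on C57BL/6J and 0.00671 and 0.0207 on SPRET/EiJ. Tor1aip1, a protein of the inner nuclear membrane, had the opposite direction, with 0.0034 and 0.00539 on C57BL/6J and 1 and 0.963 on SPRET/EiJ for the 56-base exon at chr1:156019968-156020023. Gpank1 was also included more on SPRET/EiJ, by 0.832, and the exons of Pkp4, a cell junction plakophilin, Tmc6, Zscan21, Trpc2 and Tmem80 more on C57BL/6J, by 0.974, 0.947, 0.934, 0.916 and 0.898. The SPRET/EiJ values of Tmc6 rest on 35 and 20 reads, and those of Tmem80 on 48 and 28. In Tmem80 the PSI from all reads was 0.359 and from both alleles together 0.699, so its allelic values are uncertain. In all, 15 of the 24 exons were included more on C57BL/6J and 9 on SPRET/EiJ, the adjusted p values ranged from 3.55e-231 to 2.04e-06 in the quasi-binomial test, and 4 predicted genes or genes on chromosome 18 with differences as large were counted and not named.

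**Figure D3:**
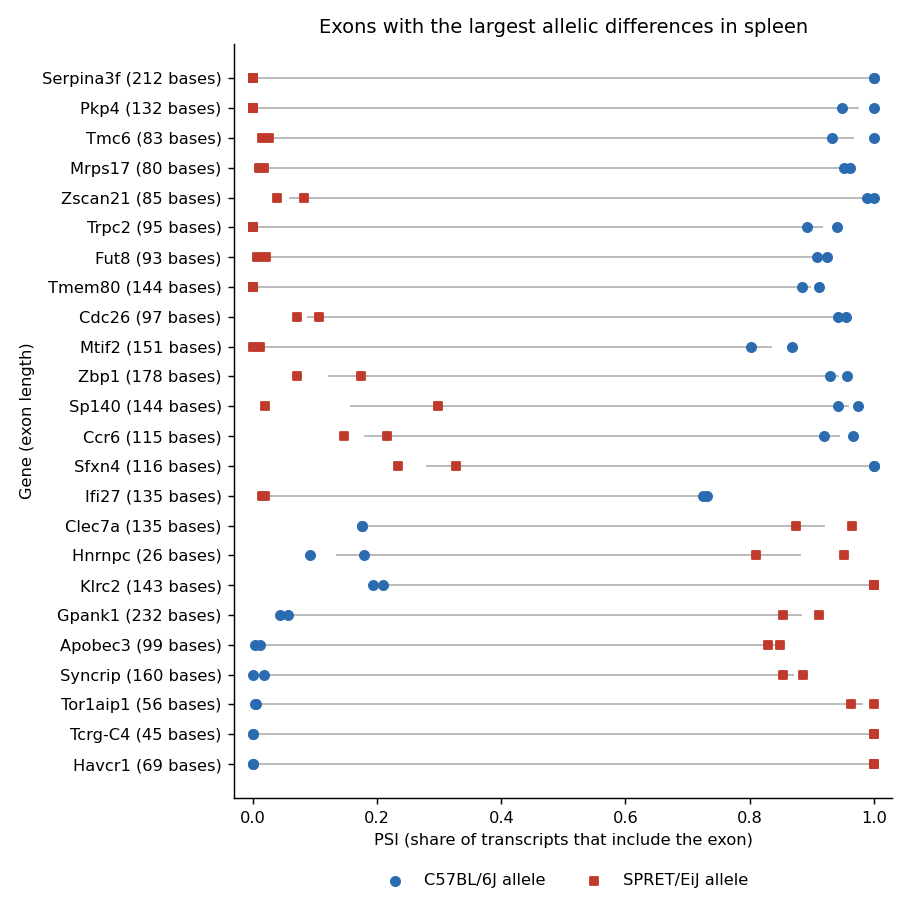
PSI of the 24 named exons with the largest allelic differences in spleen, 1 exon per gene, with the exon length in bases beside the gene. Each circle is a C57BL/6J value and each square a SPRET/EiJ value of 1 replicate, and the grey line joins the means. The values of both alleles do not overlap in any exon, as the choice of exons required, and 15 exons have the circles on the right.

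Among 80 genes of the interferon response and nucleic acid sensing, 55 had tested events, and 19 of 150 events (12.7%, against 5.08% of all) in 14 genes were called, 11 higher on C57BL/6J and 8 higher on SPRET/EiJ. The genes were Aim2, Casp4, Gsdmd, Irf9, Mx1, Oas1b, Oas2, Parp9, Samhd1, Sp100, Sp110, Sp140, Xaf1 and Zbp1. The median absolute difference of the list was 0.0174 against 0.0219 in all tested events. Sp110, a paralog of Sp140, had PSI values of 0.934 and 0.91 on C57BL/6J and 0.291 and 0.27 on SPRET/EiJ for its 150-base exon at chr1:85584903-85585052. Its PSI from all reads was 0.568 and from both alleles together 0.872, and 2145 and 1997 of its reads came from C57BL/6J against 111 and 120 from SPRET/EiJ. That gap and its family copies make the Sp110 value uncertain too.

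B cell signalling genes were called about as often as all genes, in 7 of 138 events (5.07%) in 3 of 37 genes, 2 of them higher on C57BL/6J. Tnfrsf13b, the TACI receptor for B cell survival factors, had PSI values of 0.713 and 0.685 on C57BL/6J and 0.0553 and 0.0607 on SPRET/EiJ for a 70-base exon at chr11:61128781-61128850. Pik3cd, the leukocyte catalytic subunit of phosphatidylinositol 3-kinase, was included more on SPRET/EiJ, with 0.213 and 0.221 against 0.676 and 0.726 for a 175-base exon at chr4:149697049-149697223. In Cd72, an inhibitory receptor of B cells, 5 of 12 tested events were called. Its 72-base exon at chr4:43453641-43453712 had 0.505 and 0.633 on C57BL/6J and 0.985 in both SPRET/EiJ values, while an event of the 90-base exon at chr4:43453083-43453172 had 0.993 and 0.992 on C57BL/6J and 0.751 and 0.731 on SPRET/EiJ. Of these, the 90-base event had a PSI of 0.748 from all reads and of 0.861 from both alleles together, so its allelic values are uncertain.

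In T cell signalling genes 2 of 96 events (2.08%) were called, against 5.08% of all tested events, both in Ptprc, which encodes the CD45 phosphatase and is known for the alternative exons of its extracellular part. The 147-base exon at chr1:138120020-138120166 had PSI values of 0.55 and 0.571 on C57BL/6J and 0.869 and 0.828 on SPRET/EiJ in 1 event, and the 129-base exon at chr1:138122456-138122584 had 0.843 and 0.766 on C57BL/6J and 0.634 and 0.588 on SPRET/EiJ. The events are not independent: the 105, 202, 262 and 334 reads that count as skipping of the 129-base exon are nearly the 105, 202, 265 and 337 that count as inclusion of the 147-base exon. The other events of the 16 tested in Ptprc were not called, among them events of the same exons with other neighbours.

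Antigen presentation genes had 7 called events of 81 (8.64%, against 5.08% of all), 5 of them in H2-T24 and 1 each in H2-D1 and Nlrc5, and 1 of the 7 was higher on C57BL/6J. H2-D1, a class I histocompatibility gene, had PSI values of 0.997 and 0.994 on C57BL/6J and 0.821 and 0.823 on SPRET/EiJ for a 276-base exon. H2-T24 had 0.426 and 0.468 on C57BL/6J and 0.911 and 0.819 on SPRET/EiJ for a 140-base exon at chr17:36014557-36014696. A called event of its 273-base exon has the same skipping reads, 170 and 146 on C57BL/6J and 27 and 80 on SPRET/EiJ. These calls of H2-T24 are therefore not independent. Both H2 genes lie in a family with near copies, 8 and 11 neighbours of the same name stem within 500 kb, and their reads are uncertain. Nlrc5, a transactivator of class I genes, differed by -0.179 ± 0.028 (SD, n = 2) at a 90-base exon.

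Phagocyte and lysosome genes had 8 called events of 97 (8.25%, against 5.08% of all), 6 higher on C57BL/6J and 2 higher on SPRET/EiJ, among them events in Cd68, Clec4a2, Clec7a, Itgax, Marco and Slc11a1. Slc11a1, the phagosomal metal transporter that governs resistance to intracellular microbes in mice, had a PSI of 1 in both C57BL/6J values and 0.851 and 0.859 on SPRET/EiJ for a 107-base exon. Cd68, a lysosomal glycoprotein of macrophages, differed by 0.158 ± 0.031 at a 461-base exon. In red cell membrane and heme genes 2 of 50 events (4%, against the same 5.08%) were called, in the membrane skeleton gene Add3, by 0.194 ± 0.000234, and in the mitochondrial glycine carrier gene Slc25a38, by -0.205 ± 0.0465 (each SD, n = 2).

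Splicing factor genes had 8 called events of 211 (3.79%, against 5.08% of all), in Hnrnpc, Hnrnpf, Hnrnpr, Rbm25, Rbm39 and Syncrip, and a median absolute difference of 0.0141. Rbm39 had PSI values of 0.389 and 0.529 on C57BL/6J and 0.221 and 0.236 on SPRET/EiJ for a 55-base exon. Genes of nonsense-mediated decay, which removes transcripts with early stop codons, had 2 called events of 18 (11.1%, against 5.08%), both in Rnps1, an exon junction complex gene: the 181-base exon had 0.126 and 0.234 on C57BL/6J and 0.592 and 0.621 on SPRET/EiJ. The 2 events share their skipping reads, 429 and 438 on C57BL/6J and 71 and 71 on SPRET/EiJ, so they are not independent. RefSeq names 1 pseudogene after Rnps1. Of 104 events in cell cycle and DNA repair genes 7 (6.73%, against 5.08%) were called, among them events in Mdm2, Msh3, Mutyh, Pms2 and Polm, and 5 of the 7 were higher on SPRET/EiJ. Mutyh, a DNA glycosylase that removes adenine opposite oxidised guanine, had 0.17 and 0.165 on C57BL/6J and 0.893 and 0.826 on SPRET/EiJ for a 93-base exon at chr4:116810849-116810941. Mdm2, the ubiquitin ligase of p53, had 0.618 and 0.669 on C57BL/6J and 1 in both SPRET/EiJ values for the longer, 131-base form of an exon, whose SPRET/EiJ values rest on 47 and 27 reads. Its 85-base form was also called, from the same skipping reads, 51 and 47 on C57BL/6J and 0 and 0 on SPRET/EiJ.

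The share of called events varied with the mean inclusion of both alleles, which also limits the size of a difference near 0 and 1. Of 8686 events with a mean PSI of 0.9 or more, 1.25% were called, against 22.3% of 664 events between 0.3 and 0.7 and 24.3% of 457 events between 0.1 and 0.3. Below a mean PSI of 0.1, 32 of the 36 called events had higher inclusion on C57BL/6J, while between 0.3 and 0.7 the directions were 75 and 73. Exons of 30 bases or less were called in 4.08% of 245 events and exons over 300 bases in 7.11% of 408. Lengths that are a multiple of 3, which keep the reading frame, made up 43.0% of the called and 41.3% of the tested events. Of the 3081 deepest events, with a median of 1106 reads per allele and replicate, 3.05% were called, and of the 3077 shallowest, with a median of 69.5, 6.01%.

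The exons called in spleen mostly differed in the same direction elsewhere. Of 512 called events with 20 reads on each allele and replicate in lung, 380 (74.2%) had the same direction and a difference of at least 0.1 there, and none had the opposite direction at that size. The share was 68.4% of 462 events in kidney, 65.4% of 413 in embryonic stem cells, 65.1% of 416 in heart, 60.9% of 335 in liver and 57.2% of 414 in cortex. Opposite differences of at least 0.1 numbered 0 in kidney and liver, 2 in cortex, 2 in embryonic stem cells and 4 in heart. Of the events with a difference of at least 0.5 in spleen, 52 of 54 kept the direction and at least 0.1 in lung, 44 of 45 in cortex, and all 47, 42, 29 and 47 in kidney, heart, liver and embryonic stem cells. The events were chosen by their size in spleen, and they were smaller elsewhere: the median along the spleen direction was 0.175 in lung against 0.231 for the same events in spleen. Of the 625 called events, 60 could be measured in no other tissue, and these include the exons of Havcr1, Zbp1, Sp140, Sp110, Klrc2, Ccr6, Tnfrsf13b and Tmc6.

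**Figure D4:**
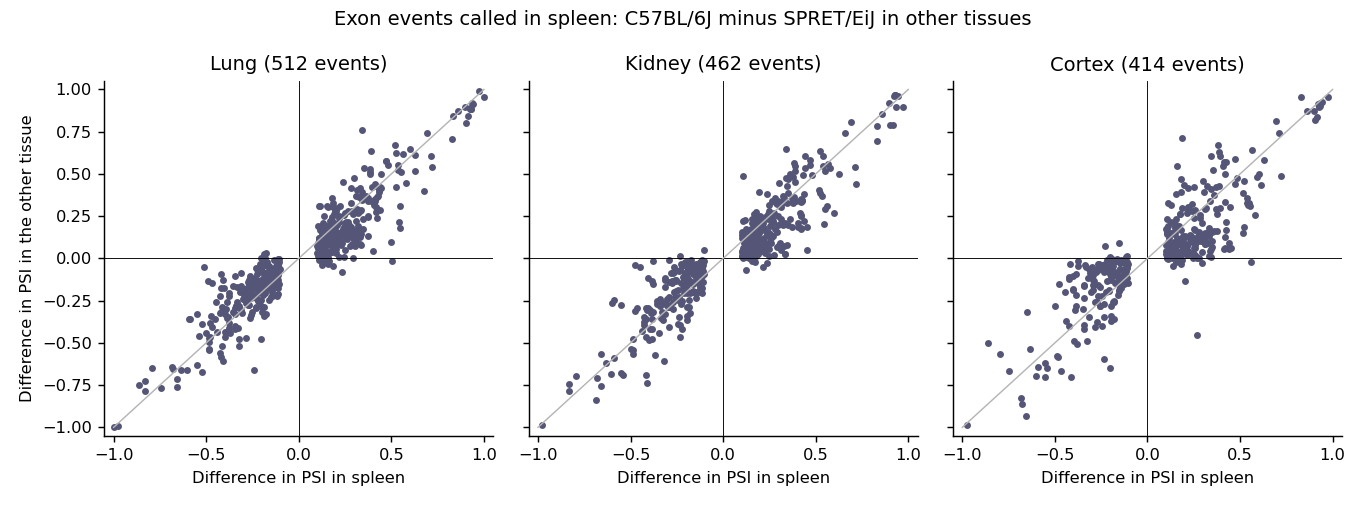
Allelic difference in PSI (C57BL/6J minus SPRET/EiJ) of exon events called in spleen (horizontal) and of the same events in lung, kidney and cortex (vertical), each with 20 or more reads per allele and replicate there. Points lie mostly to the upper right and lower left, 380 of 512 in lung with the same direction and at least 0.1, and the grey line marks equal differences.

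Direct tests called few exons whose allelic difference differed between tissues. The interaction of allele and tissue was called at an adjusted p under 0.05 and a difference of differences of at least 0.1 in 2 of 11296 events (0.0177%) between spleen and lung, 4 of 10958 (0.0365%) between spleen and kidney and 10 of 9483 (0.105%) between spleen and cortex. An unadjusted p under 0.05 was reached by 384 of 11296, 437 of 10958 and 459 of 9483 events. Each of these lies below the share of 0.05 that evenly spread p-values would give. Dst, which encodes a cytoskeletal linker of the plakin family, gave the most marked case with lung: for a 111-base exon at chr1:34303421-34303531 the spleen values were 0.984 and 0.956 on C57BL/6J and 0.684 and 0.669 on SPRET/EiJ, while in lung they were 0.918 and 0.913 and 0.906 and 0.925. In cortex the exon was mostly skipped from both alleles, with 0.128 and 0.102 on C57BL/6J and 0.164 and 0.125 on SPRET/EiJ. The difference of differences was 0.294 against lung (adjusted p = 0.0125) and 0.323 against cortex (adjusted p = 7.63e-07, both from the quasi-binomial interaction), and both comparisons use the same spleen values. With 1 replicate of either tissue left out, 0 events were called between spleen and lung.

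In Tpm1, a tropomyosin gene, a 126-base exon had values of 0.293 and 0.409 on C57BL/6J and 0.147 and 0.175 on SPRET/EiJ in spleen, against 0.628 and 0.614, and 0.577 and 0.575, in lung, and the difference of differences was 0.145. Against kidney, Tprkb, a gene of the complex that modifies transfer RNA, had -0.22 at a 108-base exon, with higher inclusion on SPRET/EiJ in spleen (0.0487 and 0.075 against 0.159 and 0.136) and on C57BL/6J in kidney (0.27 and 0.255 against 0.111 and 0.146). The 6-base exon of Ap2m1, a clathrin adaptor subunit, did not separate by allele in spleen, with 0.389 and 0.46 on C57BL/6J and 0.383 and 0.478 on SPRET/EiJ, but did in kidney, with 0.809 and 0.808 against 0.696 and 0.72. Another Dst exon, of 18 bases, gave 0.188 against kidney, and an exon of 84 bases of Postn, a matrix protein gene, gave -0.157. With either kidney library left out 0 exons were called between spleen and kidney, and without spleen replicate 2 only 1 of these 4 was.

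The widest gap was in Lsm6, a gene of a ring that binds U6 small nuclear RNA. For its 105-base exon at chr8:78812976-78813080 the PSI was 1 in both C57BL/6J values of spleen and 0.714 and 0.755 on SPRET/EiJ, while in cortex it was 0.426 and 0.671 on C57BL/6J and 1 in both SPRET/EiJ values. The allelic difference was thus 0.265 in spleen and -0.451 in cortex, a difference of 0.717 (adjusted p = 2.35e-06, quasi-binomial interaction), from 48 to 93 reads per value. Fam149b also changed direction, with 0.202 in spleen and -0.135 in cortex. Anks3 had -0.0202 in spleen and -0.439 in cortex, and Zfp62, a zinc finger gene, -0.156 and 0.0891. Of the 10 exons called between spleen and cortex, 2 were called without cortex replicate 1 and 4 without cortex replicate 2.

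Allelic expression was read from the junction reads of each gene, summed over its autosomal events. A read shared by several events of a gene was counted in each of them. In 7971 genes with 40 or more allelic reads in each replicate, the median absolute log2 ratio of C57BL/6J to SPRET/EiJ reads was 0.27, and 89.1% of genes lay within a 2-fold range. A quasi-binomial test against the library's own share called 846 genes (10.6%) at an adjusted p under 0.05 and an absolute log2 ratio of at least 1, with 477 (5.98%) higher on C57BL/6J and 369 (4.63%) higher on SPRET/EiJ. The log2 ratio was at least 3 in size in 154 of them, 77 in each direction, and at least 5 in 60. Necap2 and Fbxo42, whose imbalance was present in replicate 2 only, are among the genes called higher on C57BL/6J. Genes with imbalance held 103 of the 625 called exon events, 13.2% of the 779 tested there, against 4.53% of the 11526 in other genes. Of the 510 genes with a called exon, 425 were not called for imbalance.

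**Figure D5:**
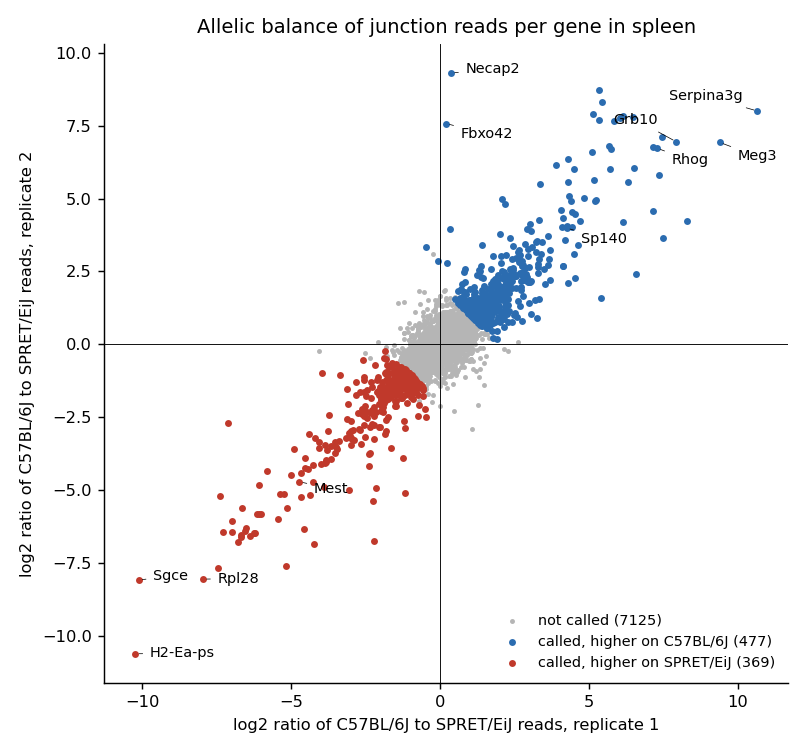
Log2 ratio of C57BL/6J to SPRET/EiJ junction reads per gene, relative to the whole library, in replicate 1 (horizontal) and replicate 2 (vertical) for 7971 genes, with 0.5 added to each count. Blue points are the 477 genes called higher on C57BL/6J and red points the 369 called higher on SPRET/EiJ. Necap2 and Fbxo42 lie near 0 in replicate 1 and above 7 in replicate 2.

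Imprinted genes, whose maternal or paternal copy is silenced, bear on the assignment of alleles, since C57BL/6J was the maternal genome, and 4 of the 5 with enough reads had nearly all reads on the copy known to be expressed. The maternally expressed genes Meg3, a noncoding RNA, and Grb10, a growth factor receptor adaptor, had nearly all reads on C57BL/6J: Meg3 had 334 and 182 reads against 0 and 1, and Grb10 had 121 and 185 against 0 and 1. The paternally expressed genes Sgce and Mest had the opposite pattern, with 0 and 1 C57BL/6J reads against 560 and 404 SPRET/EiJ reads in Sgce and 4 and 4 against 119 and 117 in Mest. The reads of the silenced copy made up 0.193% in Meg3 (95% exact binomial interval 0.0049 to 1.07%), 0.326% in Grb10 (0.00825 to 1.8%), 0.104% in Sgce (0.00262 to 0.576%) and 3.28% in Mest (1.43 to 6.36%), intervals that cover counting error only. Mest and the chromosome 18 gene below were summed over 2 events each, so their intervals may be too narrow. Grb10 is known to be expressed from the paternal copy in brain, and in cortex its reads were 19 and 23 on C57BL/6J and 466 and 477 on SPRET/EiJ. In embryonic stem cells all 4 genes had reads of both copies. There C57BL/6J had 2979 and 727 reads against 5564 and 1399 in Meg3, and 316 and 212 against 535 and 506 in Grb10. Sgce had 545 and 521 against 526 and 248, and Mest 942 and 470 against 1228 and 447. The other imprinted gene, on chromosome 18 and listed as expressed from the paternal copy, had 506 and 388 C57BL/6J reads against 715 and 750 SPRET/EiJ reads. Thus 37.9% (35.9 to 39.9%) came from the maternal copy. Its log2 ratio of -0.723 lay toward the paternal copy (adjusted p = 5.33e-05, quasi-binomial test). It was not called because the ratio did not reach 2-fold.

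H2-Ea-ps had the largest ratio toward SPRET/EiJ, with 12 and 7 C57BL/6J reads and 15124 and 11648 SPRET/EiJ reads. The gene encodes the alpha chain of the class II molecule I-E, and C57BL/6 mice are known to carry a deletion in it and to lack I-E. The log2 ratio was -10.2 and -10.6, and the gene was listed at 1788 and 1367 TPM. Lung had the same pattern, with 4 and 6 reads against 3144 and 3440.

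Several genes of translation and of other abundant proteins also had reads almost only on SPRET/EiJ. Rpl28 had 220 and 175 C57BL/6J reads and 55152 and 46253 SPRET/EiJ reads, Rpl13 283 and 371 against 35860 and 31625, Rpl27a 536 and 508 against 56208 and 46528, Rps12 915 and 750 against 77032 and 71783, and Rps13 173 and 168 against 15992 and 13128. These ribosomal protein genes have 4, 6, 4, 23 and 5 pseudogenes named after them in RefSeq. Of the genes whose log2 ratio was 3 or more in size toward SPRET/EiJ, 26.3% of 76 in RefSeq had a pseudogene named after them, against 4.23% of 71 toward C57BL/6J and 2.63% of all 7911. Reads of near-identical copies cannot be told apart here, and the part of these copies in the ratios was not tested. The other genes in this direction were Eif3j1, Sema4g, Trim34b, Kpna2 and Sumo2. Eif3j1, a translation initiation factor subunit, had 4 and 5 reads against 802 and 1109. Kpna2, a nuclear import receptor, had 34 and 66 against 3249 and 5542, and Sumo2 had 55 and 52 against 4224 and 4647. RefSeq names 1 pseudogene after Kpna2, and Trim34b has 1 neighbour of the same name stem within 500 kb, so their ratios are uncertain too. Sema4g had 13 and 13 reads against 2103 and 1166 in spleen, but 575 and 677 against 1048 and 1113 in kidney and 31 and 22 against 34 and 16 in lung.

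In the other direction, Serpina3g, an intracellular protease inhibitor of lymphocytes, had 803 and 1154 C57BL/6J reads and 0 and 4 SPRET/EiJ reads. Ly6c1, a surface antigen gene, had 1923 and 2257 reads against 13 and 20, which are uncertain because Ly6c2 is a close copy, and Clec4n, the dectin-2 receptor for fungal mannans, 1384 and 1887 against 8 and 33. Chi3l3, a chitinase-like protein of activated macrophages, had 652 and 1103 reads against 11 and 5, and 14991 and 17243 against 6 and 4 in lung. Only genes with the same direction in both spleen replicates could be named here. Rhog, a small GTPase gene, had 1478 and 1325 against 9 and 12 in spleen, and its SPRET/EiJ reads were between 0 and 19 in each library of the other 6 tissues. Fewer reads lay behind Noxred1, with 133 and 112 against 1 and 0, the apolipoprotein L gene Apol7e with 180 and 209 against 4 and 0, Sbsn with 162 and 108 against 2 and 0, Hepacam2 with 107 and 160 against 2 and 0, and RP24-315D19.2, known only by a clone name, with 140 and 103 against 3 and 0. Some of these genes were less one-sided elsewhere. In lung Clec4n had 88 and 82 reads against 9 and 17, and Hepacam2 155 and 145 against 27 and 14. RP24-315D19.2 had 506 and 342 against 169 and 96 in lung, and Noxred1 57 and 71 against 21 and 65 in embryonic stem cells. Sbsn stayed one-sided in kidney, with 176 and 162 against 3 and 5. Serpina3g, Apol7e and Clec4n have 13, 3 and 8 neighbours of the same name stem within 500 kb, and 16.9% of the 71 genes with a ratio of 3 or more toward C57BL/6J had such a neighbour, against 2.43% of all 7911. Log2 ratios of genes with 0 to 3 reads on an allele depend on the 0.5 added to each count and are not given. Another 2 predicted or chromosome 18 genes on the C57BL/6J side and 3 on the SPRET/EiJ side had ratios as large and were not named.

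Over the lists, against 10.6% of all genes, imbalance was called in 10 of 59 interferon and nucleic acid sensing genes (16.9%), 8 of them higher on C57BL/6J, in 8 of 43 phagocyte genes (18.6%), 7 of them higher on C57BL/6J, and in 5 of 34 antigen presentation genes (14.7%), all higher on C57BL/6J. Of all genes, 5.98% were called higher on C57BL/6J and 4.63% higher on SPRET/EiJ. Imbalance was called in 3 of 42 T cell signalling genes (7.14%), 6 of 80 splicing factor genes (7.5%), 1 of 66 cell cycle and repair genes (1.52%), 1 of 17 decay factor genes (5.88%), and in 0 of 42 B cell signalling and 0 of 32 red cell genes, whose median absolute log2 ratios were 0.15 and 0.2 against 0.27 in all genes. In these last lists 23 of 42 and 13 of 32 genes had an unadjusted p under 0.05 in the quasi-binomial test, against 3831 of all 7971 genes. The ratios of these 23 and 13 genes did not reach 2-fold.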

How the data were processed

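Spleen RNA was sequenced as paired reads of 76 bases, and the authors trimmed the longer reads of heart, kidney and cortex to that length. Per the labels and the study's methods, the authors mapped reads with HISAT2 2.0.1 to mm10 and to a SPRET/EiJ genome made from it, gave each read to the genome it matched with fewer differences, moved SPRET/EiJ positions to mm10 with g2gtools, and counted skipped exon events of Ensembl 74 with rMATS. Used were the deposited inclusion and skipping junction read counts of each allele and the TPM that the authors computed per gene. The authors' columns of inclusion levels, their difference, p-values and false discovery rates were not used. Replicates follow their place in each cell of the tables.

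PSI was inclusion reads per effective length over the sum of both forms per effective length, 77 to 150 for inclusion and 75 for skipping. Events with 20 or more reads per allele and replicate and 5 or more of the rarer form were fitted with a quasi-binomial model of allele, the dispersion moderated over events with a depth trend (limma 3.58.1, R 4.3.3), at least 1, with an F test and Benjamini-Hochberg adjustment. Differences are C57BL/6J minus SPRET/EiJ. Genes were tested likewise against the library's share, and ratios had 0.5 added to each count. Limits for a count of 0 used 3 counts. Scripts were tested on simulated data. Depth limits small differences, and intervals cover counting error only.

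Both alleles of a library come from the same RNA and so pair by construction: their counts sum to the table of both alleles in 100% of 27890 events, and the replicate differences of the alleles correlated with r = 0.144 over tested events. The fits with and without this replicate block called 659 and 625 exons.

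Named were the 24 exons with the largest difference among called exons whose alleles did not overlap, 1 per gene, up to 4 per gene list, up to 5 per tissue comparison, the 12 genes per direction with the largest ratio and imprinted genes with enough reads. The 24 exons and the 12 genes per direction were also required to have the same direction in both replicates. Predicted genes and genes on chromosome 18 were counted only, and some list members are not reported here. Members and lists were chosen with earlier results of these data known. Copies and neighbours were read from RefSeq gene names (GRCm38.p6). Copies under another name stem were missed: Ly6c1 was listed with 0 pseudogenes and 0 neighbours although Ly6c2 is a close copy. Alternatives were other read minimums, priors, tests, shares and events, and each replicate left out.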

Additional observations from a re-analysis of the deposited data

Results flagged for a closer look

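The tests of the difference of differences between spleen and another tissue called 2 exon events with lung, 4 with kidney and 10 with cortex. Counted as spleen minus the other tissue, the differences of C57BL/6J minus SPRET/EiJ inclusion were 0.294 for the 111-base Dst exon and 0.145 for the 126-base Tpm1 exon with lung. With kidney they were -0.22 for Tprkb, 0.188 for the 18-base Dst exon, -0.157 for Postn and -0.107 for Ap2m1. With cortex they were 0.717 for Lsm6, 0.419 for Anks3, 0.338 for Fam149b, 0.323 for the 111-base Dst exon and -0.245 for Zfp62. Each of them had the same sign in both replicates.

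Reads on the X chromosome entered no comparison of exons. In spleen 42.4% of the allelic junction reads of X-linked events in replicate 1 and 39.4% in replicate 2 came from C57BL/6J, from 285048 and 239689 reads against 387083 and 368968, while autosomal reads stood at 49.9% and 50.04%. Of 208 X-linked genes with enough reads, 148 (71.2%) lay under 50% in both replicates, against 36.1% of autosomal genes. The C57BL/6J share of X-linked reads was 39.4% and 38.0% in heart, 45.1% and 38.2% in liver, 46.2% and 48.4% in embryonic stem cells, 49.7% and 25.7% in lung, 52.9% and 47.8% in kidney and 53.5% and 39.7% in cortex.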

How the results depend on the processing

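Of the 625 called exons, 575 to 591 had the same direction and at least 0.1 in the other replicate when 1 was left out. Of the 846 genes 739 to 750 kept a ratio of at least 2-fold. These are counts with no test and no new fit. They start from calls made with both replicates, a choice that favours such agreement. Counts of exons under the alternatives lay between 494 and 852, all within 1.5 times, except 365 with at least 100 reads per allele and replicate, where 366 of the called exons could be tested and 364 were called. The highest, 852 with the replicate block and no depth trend, held all 625. That fit, the limit of 100 reads and the robust prior (646) were chosen after seeing the data. So was the count of genes called without those that have a named pseudogene or a neighbour of the same name stem (699). The replicate block called 659 exons, 619 of them shared, and 2, 5 and 10 exons in the interactions with lung, kidney and cortex, and kept the call of all 49 named exons. With no depth trend in the prior, 7 exons differed between spleen and kidney in place of 4. With 1 library left out, its partner being assumed to vary like the other libraries, 0 exons differed with lung whichever library it was (203 to 254 at an unadjusted p under 0.05), 0 to 4 with kidney (0 without either kidney library; 3 and 4 without spleen replicates 1 and 2, of which 2 and 1 were among the 4 called with all libraries) and 2 to 12 with cortex (2 without cortex replicate 1, 4 without cortex replicate 2, 6 and 12 without spleen replicates 1 and 2, of which 2, 4, 5 and 8 were among the 10). Each lung fit with 1 library left out covered 11296 events. Genes called for imbalance numbered between 673 and 977, with limma's test of the log2 ratio at 690. With only the deepest event of each gene, 8 of the 26 named ratios moved by more than 1 SD. Without effective lengths 32 of the 49 named differences moved by more than 1 SD, and thinned to 20 reads 30 did, in no case with a change of sign.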
